A study of Homo sapiens with 9 samples.

Results

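Glycolysis and the response to low oxygen were followed through 38 genes in A431 cells, an epidermoid carcinoma line that carries mutant p53 of its own. The 38 were chosen by name, as a list of glycolytic enzymes, glucose and lactate transporters and hypoxia-inducible genes, from the 58051 genes in the count table. The 3 groups of 3 libraries each were compared with each other. A431 parental (mutp53) cells carried no construct. A431 Ctrl (mutp53) cells carried an empty CRISPR vector with GFP, and A431 p53 KO cells a GFP CRISPR construct against p53. All 3 groups share the A431 background, so both the parental and the Ctrl cells express mutant p53. Cells of every group came from single colonies, were plated in 6-well plates and were collected 48 h after they had settled in ordinary medium. The oxygen level is not given in the labels, and no group was described as hypoxic. A difference between groups therefore cannot be told apart from a difference between colonies. The labels do not say whether the 3 libraries of a group came from separate cultures, and p-values therefore measure only the spread between these libraries.

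Glycolysis splits glucose into pyruvate in the cytosol, and lactate dehydrogenase turns pyruvate into lactate, which monocarboxylate transporters carry out of the cell. When oxygen is plentiful, prolyl hydroxylases of the EGLN family mark the hypoxia-inducible factor (HIF) α subunits for destruction. When oxygen is scarce the α subunits persist, pair with ARNT and bind short core sequences, ACGTG or GCGTG, beside genes for glucose uptake, glycolysis, angiogenesis and pH control. HIF α subunits are controlled largely as proteins, which RNA-Seq does not measure. Many carcinoma cells are known for high glycolysis even in oxygen.

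Between 19783778 and 29840452 reads per library were counted on genes. Of 10 keratinocyte markers 9 passed the filter on low counts, with 209357 to 510605 counts in sum per library, while KRT14 held 0 to 13. Most of that sum was EGFR, with 169946 to 452758 counts, so it mainly reflects this 1 gene. KRT5 held 9650 to 17700 counts and KRT17 229 to 434. Marker sums were 48 to 115 counts for fibroblasts, 9 to 33 for endothelial cells and 22 to 83 for leukocytes, and COL3A1, DCN, LUM, KDR, PTPRC and CD3E had 0 counts everywhere. Ctrl replicate 1 stood apart from the other libraries. Against the mean of the other 2 Ctrl libraries, its median log2 deviation was 0.22 in the genes with the shortest exons and -0.23 in those with the longest. In p53 KO replicate 3 these medians were 0.12 and -0.11. The counts below are therefore also given without Ctrl replicate 1. In such bulk RNA, fewer cells with a transcript and less of it per cell cannot be told apart.

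**Figure D1:**
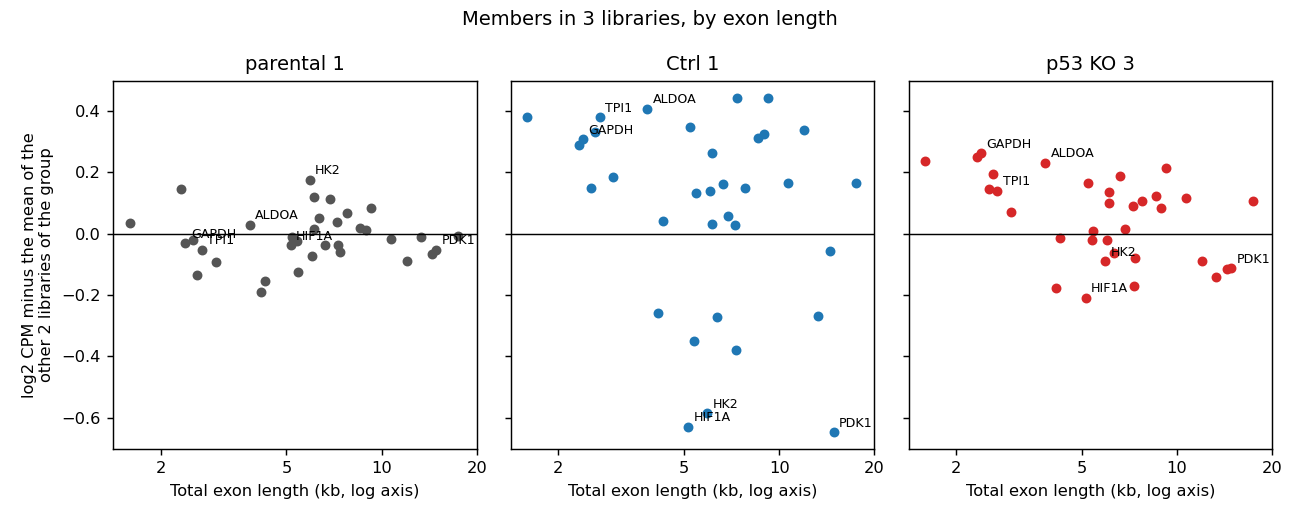
Deviation of 34 members in parental replicate 1, Ctrl replicate 1 and p53 KO replicate 3 from the other 2 libraries of the same group (vertical axis, log2 CPM) by total exon length (horizontal axis, kb, log scale). Each point is a member, and ANKRD37 and ANGPTL4 are left out for their low counts. In Ctrl replicate 1, HIF1A, HK2 and PDK1 lay at -0.63, -0.58 and -0.65, and ALDOA, TPI1 and GAPDH at 0.41, 0.38 and 0.31.

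The promoters of 6 members are shown because these genes were lower in Ctrl than in parental cells and higher in p53 KO than in Ctrl cells, each past the test. SLC16A1 did the same and had no window here. Each run holds the 250 bases before the gene's start in RefSeq (GRCh38.p14), read 5′ to 3′ on the gene's own strand, and capitals mark the HIF core ACGTG or GCGTG or its complement. ENO2 lies at chr12:6914330-6914579 (plus strand), PFKFB4 at chr3:48556804-48557053 (minus strand), ANGPTL4 at chr19:8363905-8364154 (plus strand), LDHA at chr11:18394313-18394562 (plus strand), KDM3A at chr2:86441121-86441370 (plus strand) and EGLN3 at chr14:33951075-33951324 (minus strand).
ENO2: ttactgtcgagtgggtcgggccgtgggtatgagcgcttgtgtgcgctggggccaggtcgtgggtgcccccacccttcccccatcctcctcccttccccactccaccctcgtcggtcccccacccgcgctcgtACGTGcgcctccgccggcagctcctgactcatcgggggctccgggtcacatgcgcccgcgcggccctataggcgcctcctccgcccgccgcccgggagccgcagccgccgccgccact
PFKFB4: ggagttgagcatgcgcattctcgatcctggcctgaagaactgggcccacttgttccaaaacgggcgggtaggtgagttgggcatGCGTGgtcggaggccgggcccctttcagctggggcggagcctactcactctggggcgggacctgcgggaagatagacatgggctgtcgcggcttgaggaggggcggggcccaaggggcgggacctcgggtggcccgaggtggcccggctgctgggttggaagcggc
ANGPTL4: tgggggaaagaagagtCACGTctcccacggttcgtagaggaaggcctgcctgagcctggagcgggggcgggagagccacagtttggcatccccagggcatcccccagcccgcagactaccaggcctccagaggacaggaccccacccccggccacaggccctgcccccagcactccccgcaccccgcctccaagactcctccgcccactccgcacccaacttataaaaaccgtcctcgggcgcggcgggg
LDHA: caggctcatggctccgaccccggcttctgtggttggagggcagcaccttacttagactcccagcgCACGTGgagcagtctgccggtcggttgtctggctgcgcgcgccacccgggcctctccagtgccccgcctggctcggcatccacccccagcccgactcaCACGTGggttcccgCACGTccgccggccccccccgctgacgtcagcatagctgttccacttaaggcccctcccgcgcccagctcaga
KDM3A: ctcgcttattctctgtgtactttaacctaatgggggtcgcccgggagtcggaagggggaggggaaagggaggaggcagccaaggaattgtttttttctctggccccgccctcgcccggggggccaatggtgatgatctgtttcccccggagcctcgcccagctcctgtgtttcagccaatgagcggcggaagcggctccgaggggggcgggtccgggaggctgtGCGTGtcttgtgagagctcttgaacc
EGLN3: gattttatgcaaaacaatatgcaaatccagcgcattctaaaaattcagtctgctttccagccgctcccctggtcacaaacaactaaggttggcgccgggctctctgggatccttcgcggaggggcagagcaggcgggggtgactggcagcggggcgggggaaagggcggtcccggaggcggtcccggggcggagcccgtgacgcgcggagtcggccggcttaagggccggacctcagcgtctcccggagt
The core stood 118 bases before the start in ENO2, 166 in PFKFB4, 234 in ANGPTL4 and 26 in KDM3A. LDHA held it 5 times, at 185, 184, 87, 86 and 73 bases before the start, since the palindrome CACGTG counts on both strands. In EGLN3 these letters were not found in this window. RefSeq windows were at hand for 33 of the 38 members, without SLC2A3, SLC16A1, VEGFA, NDRG1 and BNIP3L. On either strand, 22 of the 33 windows (66.67%) held ACGTG or GCGTG, against 43.21% of 35116 promoters. ACGTG was in 13 of 33 (39.39%) against 18.51%, and GCGTG in 13 of 33 (39.39%) against 32.22%. CACGTG, which contains ACGTG and is also the core of the E-box, was in 4 of 33 (12.12%) against 6.345%. The 35116 promoters count every start listed, while each member counts by its first start only, so the shares are over unlike sets. The members were also chosen as glycolytic or hypoxia-inducible genes, and the difference in shares was not tested. A match describes the letters and was not tested as a binding site.

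In all, 36 of the 38 members passed the filter on low counts. SLC2A3, the high-affinity glucose transporter GLUT3, held 0 to 3 counts per library, and CA12, a membrane carbonic anhydrase, held 0 in all 9, where a count of 0 allows up to 3 counts per library. Together the 38 members took 1.87% to 1.94% of all counts in parental cells, 1.85% to 2.23% in Ctrl cells and 2.05% to 2.27% in p53 KO cells. All 3 p53 KO libraries lay above the parental ones, and the Ctrl range overlapped both. The highest shares were those of p53 KO replicate 3 (2.27%) and Ctrl replicate 1 (2.23%), the libraries described above with higher values in genes with short exons. The part of that deviation in the shares was not tested. GAPDH alone took 0.412% to 0.430% in parental, 0.415% to 0.553% in Ctrl and 0.464% to 0.573% in p53 KO cells.

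Against parental cells, 8 of the 36 members were higher in p53 KO cells and none was lower, at an adjusted p of at most 0.05 (edgeR's quasi-likelihood test, adjusted over all genes). Among all 14513 genes tested, 9.77% were higher and 8.36% lower. The 8 were SLC2A1, HK1, PFKFB4, PGK1, PGAM1, LDHB, PDK3 and EGLN3. At an unadjusted p under 0.05, edgeR had 15 members in either direction and 32.0% of all genes. DESeq2 called 8 members higher and 3 lower in the same comparison, against 10.7% and 9.72% of all genes. None of the members also passed a log2 fold change of 1.5, which 1.95% of all genes did. The median log2 fold change was 0.10 over the members and 0.01 over all genes. Without Ctrl replicate 1, which is in neither group of this comparison, 13 members were higher and 5 lower, against 17.2% and 16.3% of all genes. Gained were SLC16A3, GAPDH, ENO1, PKM and LDHA on the higher side and HK2, PFKP, PFKFB3, HIF1A and VEGFA on the lower. Without parental replicate 1, 4 members passed, and the share of all genes past the test fell as well, from 18.1% to 10.6%.

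Against Ctrl cells, 11 members were higher in p53 KO cells, where 15% of all genes were. They were SLC16A1, HK1, PFKFB4, PGK1, PGAM1, ENO2, LDHA, BNIP3L, EGLN3, KDM3A and ANGPTL4. PFKFB3 and ADM were lower, where 14.2% of all genes were. Only ENO2 and ANGPTL4 also passed a log2 fold change of 1.5, as did 3.29% of all genes. The median was 0.10 over the members and 0.01 over all genes. Without Ctrl replicate 1, 16 members were higher and 3 lower, against 17.7% and 17.3% of all genes. Gained were SLC2A1, SLC16A3, GPI, ENO1 and PKM on the higher side and EPAS1 on the lower.

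The comparison of the controls with each other addresses whether the vector control itself stands apart. In Ctrl against parental cells, LDHB was the 1 member higher (10.6% of all genes were higher). Lower were 8 members, SLC16A1, PFKFB4, ENO2, LDHA, VEGFA, EGLN3, KDM3A and ANGPTL4 (9.69% of all genes were lower). ENO2 and ANGPTL4 again passed a log2 fold change of 1.5, as did 1.94% of all genes. The median was -0.02 over the members and 0.00 over all genes. Without Ctrl replicate 1, 1 member was higher and 9 lower, against 10.4% and 10.3% of all genes, and without Ctrl replicate 3 the numbers were 9 and 11, against 15.5% and 14.1%. Without parental replicate 1, 2 or 3 the count past the test was 4 each time, and of all genes 9.34%, 10.5% and 10.7% passed in place of 20.3%. The 3 comparisons share libraries, so a low Ctrl level enters both of those that hold Ctrl.

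**Figure D2:**
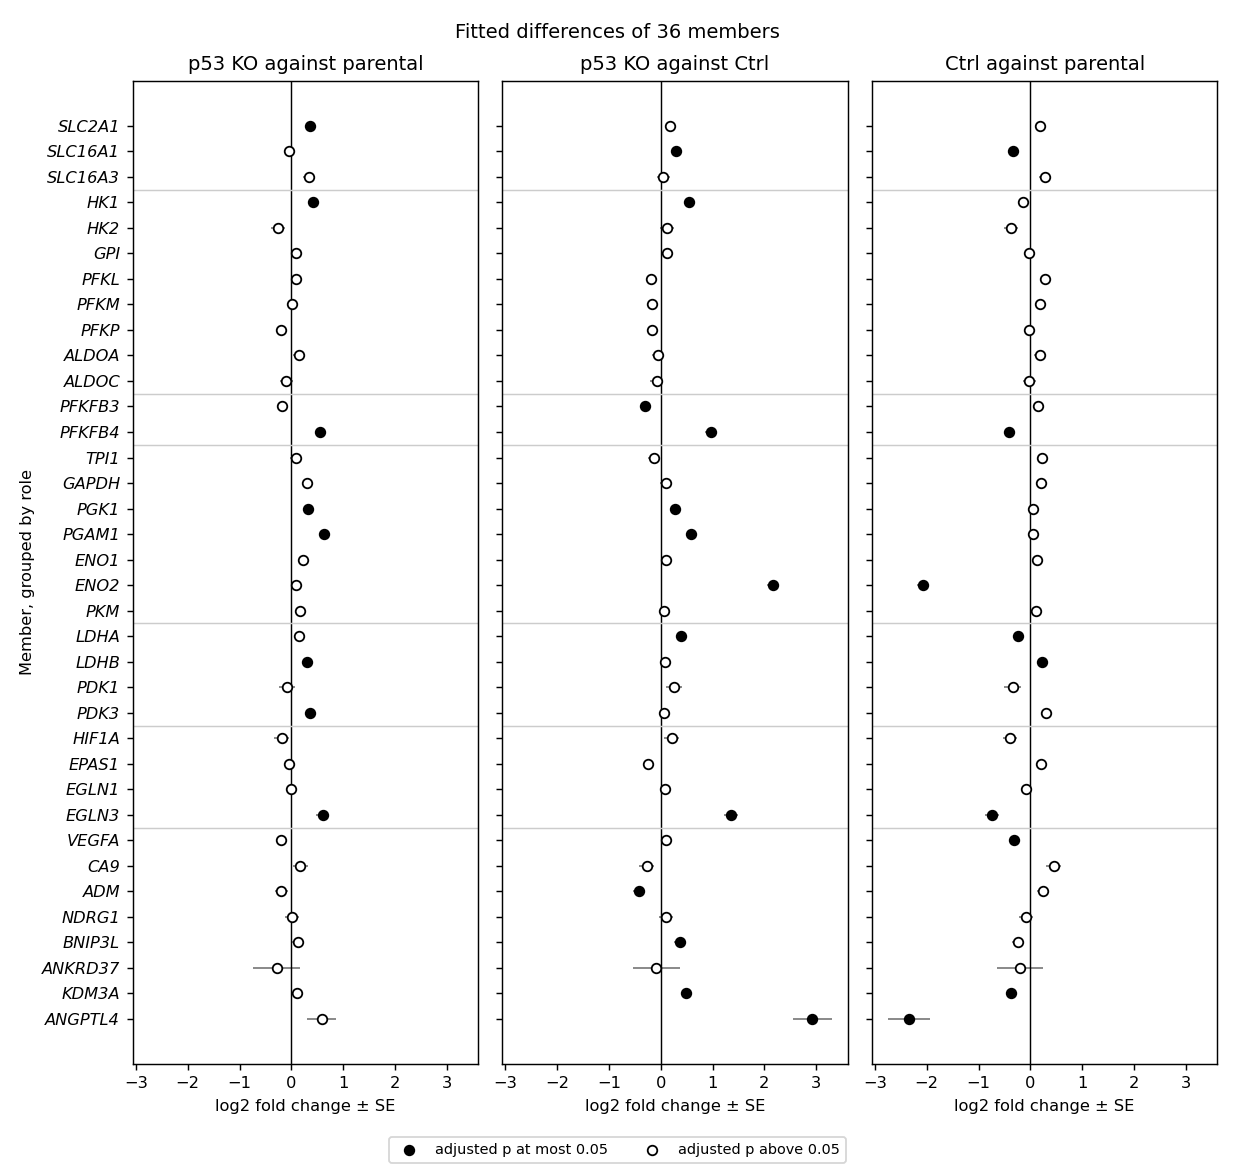
Fitted log2 fold change of 36 members (horizontal axis, bars are SE) in the 3 comparisons, with members grouped by role on the vertical axis. Filled points passed an adjusted p of 0.05, which 8, 13 and 9 members did from left to right. ENO2 and ANGPTL4 lie beyond 2 on the log2 scale in both comparisons that hold Ctrl.

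Libraries were also compared by their order alone. All 3 p53 KO libraries lay above the 6 others in KDM3A, PFKFB4, PGK1, LDHA, HK1, PGAM1 and EGLN3, which is 7 of 36 members against 11.9% of all genes. They lay below the 6 others in PFKFB3 alone, against 10.1% of all genes. All 3 Ctrl libraries lay above the rest in ADM, PFKFB3 and PFKM, against 10.8% of all genes. They lay below the rest in 8 members, SLC16A1, KDM3A, PFKFB4, LDHA, HK1, ENO2, EGLN3 and ANGPTL4, against 11.4% of all genes. Without Ctrl replicate 1, the p53 KO libraries lay above or below all others in 14 members, against 30.8% of all genes, where they had done so in 8 members and 22.0% of all genes with it.

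**Figure D3:**
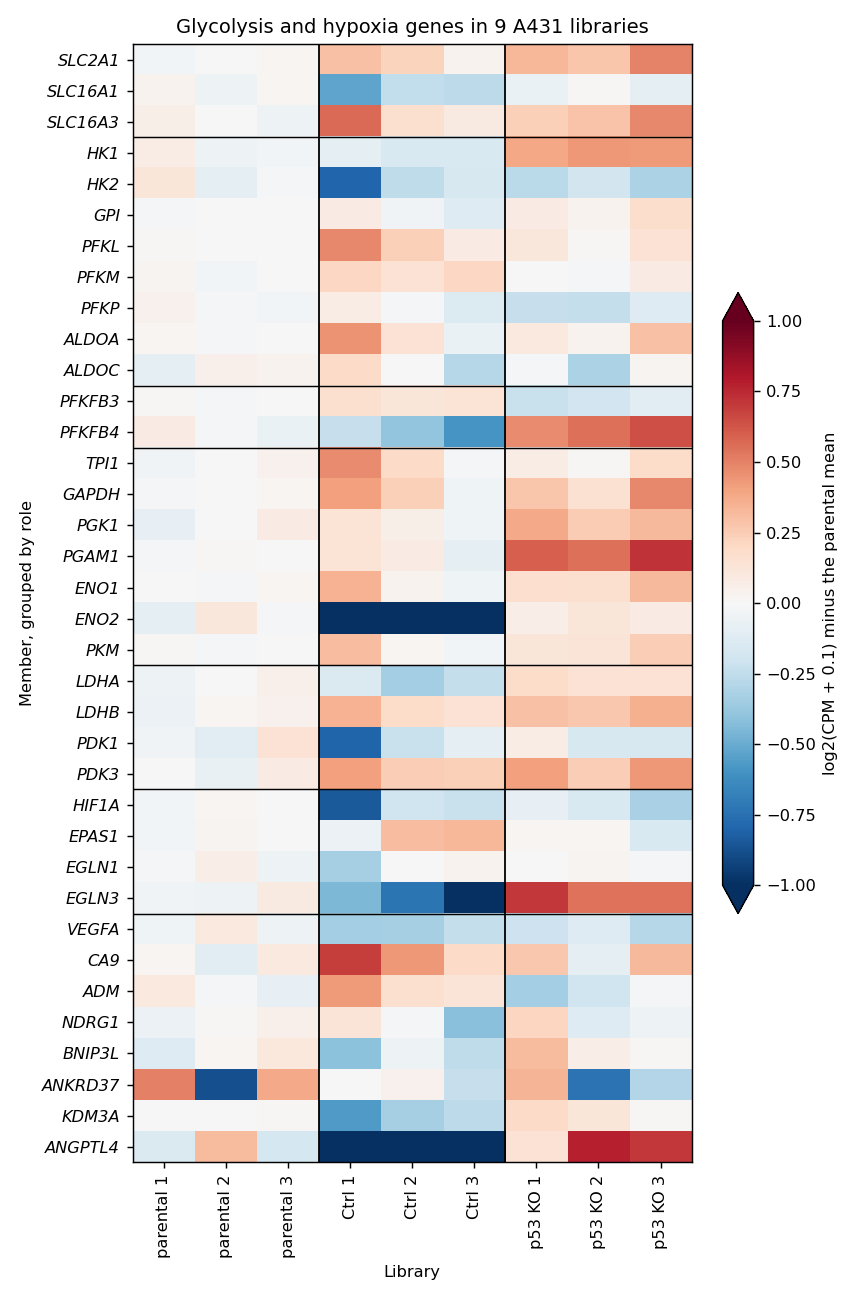
Level of 36 members (rows, grouped by role) in the 9 libraries (columns) as log2(CPM + 0.1) minus the parental mean, with colours limited to 1 in size. ENO2 and ANGPTL4 are deep blue in all 3 Ctrl libraries, while PFKFB4 and EGLN3 are blue in Ctrl and red in p53 KO libraries.

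Levels between members were compared as CPM per kb of exon, where CPM is the count scaled to a common library size after TMM normalization. Averaged over the 9 libraries, GAPDH was highest at 1989 CPM per kb, followed by ENO1 at 587, LDHA at 384, PKM at 369, ALDOA at 346 and TPI1 at 323. The neighbours in this order overlapped in part. In parental cells LDHA stood at 389 ± 13.3 CPM per kb (SD, n = 3) and PKM at 346 ± 3.03. In Ctrl cells LDHA stood at 329 ± 21.6, within the spread of PKM at 373 ± 48.7, ALDOA at 365 ± 65.8 and TPI1 at 351 ± 59.4. In p53 KO cells LDHA stood at 433 ± 7.13 and PKM at 388 ± 19.3. The lowest members tested were PDK3 at 0.620, ANGPTL4 at 0.256 and ANKRD37 at 0.221 CPM per kb.

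Among the transporters, SLC2A1 rose in p53 KO against parental cells, and SLC16A1 was lowest in Ctrl cells. SLC2A1 codes for GLUT1, the basal glucose transporter. It reached 136, 138 and 139 CPM in the parental, 169, 161 and 141 in the Ctrl and 174, 167 and 194 in the p53 KO libraries. The p53 KO libraries lay above all parental ones and overlapped with Ctrl. The log2 fold change was 0.37 ± 0.08 against parental cells (SE, as after every fold change, adjusted p = 0.0106) and 0.18 ± 0.08 against Ctrl cells (adjusted p = 0.125), and the first was lost without parental replicate 1 (adjusted p = 0.0514). SLC16A1 codes for MCT1, which carries lactate and pyruvate in either direction. Its levels were 234, 220 and 232 CPM in parental, 158, 192 and 191 in Ctrl and 218, 230 and 214 in p53 KO libraries, with every Ctrl value below the 6 others. The log2 fold change was -0.34 ± 0.08 in Ctrl against parental cells (adjusted p = 0.0159) and 0.29 ± 0.08 in p53 KO against Ctrl cells (adjusted p = 0.0209). The first was lost without parental replicate 1 or 3 (adjusted p up to 0.0635), and the second without p53 KO replicate 1 or 2 (adjusted p up to 0.0840). SLC16A3, the lactate exporter MCT4, averaged 97.1 ± 3.59, 119 ± 22.1 and 123 ± 11.0 CPM in the 3 groups in the same order. A log2 fold change of 0.34 ± 0.12 in p53 KO against parental cells did not pass the test (adjusted p = 0.0740). Without Ctrl replicate 1 it passed at 0.34 ± 0.07 (adjusted p = 0.00147). In that fit SLC16A3 also passed in p53 KO against Ctrl cells, at 0.21 ± 0.08 (adjusted p = 0.0411).

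In upper glycolysis, HK1 alone of 8 members passed the test, in both comparisons with p53 KO. HK1 and HK2 are hexokinases, which trap glucose in the cell as glucose 6-phosphate. HK1 stood at 259, 237 and 241 CPM in the parental, 230, 221 and 221 in the Ctrl and 321, 331 and 330 in the p53 KO libraries. The p53 KO libraries were the highest and the Ctrl libraries the lowest, with no overlap. The log2 fold change of HK1 was 0.41 ± 0.06 in p53 KO against parental cells (adjusted p = 0.000983), 0.55 ± 0.06 against Ctrl cells (adjusted p = 7.85e-05) and -0.13 ± 0.06 in Ctrl against parental cells (adjusted p = 0.141). HK2 stood at 129, 111 and 117 CPM in the parental, 68.5, 99.5 and 106 in the Ctrl and 98.6, 105 and 95.6 in the p53 KO libraries. Ctrl replicate 1 set the low end of HK2, and the other Ctrl values overlapped with p53 KO. The ratio of HK1 to HK2 per kb ran from 1.73 to 1.84 in parental, 1.79 to 2.89 in Ctrl and 2.72 to 2.97 in p53 KO libraries. Ctrl replicate 1 gave the 2.89, and the other 2 Ctrl libraries lay at 1.91 and 1.79.

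In the fit used throughout, the other 6 members of upper glycolysis did not pass the test in any comparison. GPI, the isomerase that makes fructose 6-phosphate, had means of 836 ± 5.35, 821 ± 60.4 and 895 ± 45.1 CPM in parental, Ctrl and p53 KO cells. PFKL, PFKM and PFKP are the liver, muscle and platelet forms of phosphofructokinase, the committed step of the pathway. PFKP was the most abundant of them per kb, at 48.0 ± 1.33 in parental, 47.3 ± 3.54 in Ctrl and 41.9 ± 1.83 CPM per kb in p53 KO cells. PFKL followed with 18.4 ± 0.0949, 22.3 ± 3.17 and 19.5 ± 0.946 CPM per kb in the same order. PFKM stood at 99.6, 95.7 and 99.8 CPM in the Ctrl libraries, above the 84.7 to 91.5 of the 6 others. The Ctrl difference from parental cells was 0.19 ± 0.06 on the log2 scale (adjusted p = 0.0602). ALDOA and ALDOC are aldolases, which split fructose 1,6-bisphosphate. ALDOA exceeded ALDOC per kb between 23.4 and 31.1 times in all 9 libraries. ALDOA ranged from 1168 to 1667 CPM within the Ctrl group, which contains its whole range elsewhere.

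PFKFB3 and PFKFB4 moved in opposite directions in p53 KO against Ctrl cells. Both enzymes make and remove fructose 2,6-bisphosphate, the strongest activator of phosphofructokinase, and PFKFB3 is known for its high kinase activity. PFKFB4 stood at 12.9, 12.1 and 11.6 CPM in the parental, 10.4, 9.27 and 8.08 in the Ctrl and 16.9, 17.9 and 19.2 in the p53 KO libraries. The 3 groups did not overlap, with Ctrl lowest and p53 KO highest. Its log2 fold change was 0.56 ± 0.10 in p53 KO against parental cells (adjusted p = 0.00378), 0.96 ± 0.11 against Ctrl cells (adjusted p = 6.78e-05) and -0.41 ± 0.11 in Ctrl against parental cells (adjusted p = 0.0243). The last was lost without any 1 parental library or Ctrl replicate 2 (adjusted p up to 0.0978). It was also lost with the replicate number as a block and with only the 2 groups fitted. PFKFB3 stood at 68.4, 67.4 and 67.9 CPM in the parental, 75.9, 73.9 and 74.6 in the Ctrl and 58.0, 59.6 and 63.0 in the p53 KO libraries. Here Ctrl was highest and p53 KO lowest, again with no overlap. PFKFB3 changed by -0.31 ± 0.07 on the log2 scale in p53 KO against Ctrl cells (adjusted p = 0.00393) and by -0.17 ± 0.07 against parental cells, which did not pass (adjusted p = 0.0907). Per kb, PFKFB3 exceeded PFKFB4 between 5.30 and 5.83 times in parental, 7.29 and 9.23 times in Ctrl and 3.29 and 3.42 times in p53 KO libraries.

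In lower glycolysis, PGAM1 and PGK1 rose in p53 KO cells against both controls, and ENO2 was low in Ctrl cells. PGAM1, phosphoglycerate mutase, stood at 202, 206 and 204 CPM in the parental, 224, 216 and 190 in the Ctrl and 309, 299 and 337 in the p53 KO libraries. All p53 KO values lay above the 6 others, and the other groups overlapped. Its log2 fold change was 0.63 ± 0.08 against parental (adjusted p = 0.000338) and 0.59 ± 0.08 against Ctrl cells (adjusted p = 0.000214). PGK1, the kinase that yields the first ATP of the pathway, stood at 578, 613 and 646 CPM in the parental, 674, 636 and 594 in the Ctrl and 796, 729 and 766 in the p53 KO libraries. Its log2 fold change was 0.32 ± 0.07 against parental (adjusted p = 0.0109) and 0.27 ± 0.07 against Ctrl cells (adjusted p = 0.0169). The first was lost without parental replicate 1 or p53 KO replicate 1 (adjusted p up to 0.0615), and the second without Ctrl replicate 2 or 3 or p53 KO replicate 1 (adjusted p up to 0.0754).

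ENO2 codes for the neuronal form of enolase, which makes phosphoenolpyruvate, and ENO1 for the form found in most tissues. ENO2 stood at 13.1, 15.2 and 14.0 CPM in the parental, 3.42, 2.88 and 3.81 in the Ctrl and 14.8, 15.4 and 14.9 in the p53 KO libraries. In raw counts these were 343, 396 and 303, then 67, 82 and 100, then 441, 404 and 301. The Ctrl libraries lay far below the others, and the parental and p53 KO libraries overlapped. ENO2 was 4.20-fold lower in Ctrl than in parental cells, a log2 difference of -2.07 ± 0.12 (adjusted p = 2.35e-06). It was 4.47-fold higher in p53 KO than in Ctrl cells, with 2.16 ± 0.12 (adjusted p = 5.11e-07). Against parental cells p53 KO cells differed by 0.09 ± 0.10 (adjusted p = 0.581). ENO2 passed the test in both comparisons with Ctrl in all 18 alternative analyses. ENO1 did not follow this pattern, with 2823 ± 36.0 CPM in parental cells, 3077 ± 451 in Ctrl cells and 3284 ± 222 in p53 KO cells. Per kb, ENO1 exceeded ENO2 between 151 and 176 times in parental, 591 and 863 times in Ctrl and 168 and 195 times in p53 KO libraries.

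In the fit used throughout, TPI1, GAPDH, ENO1 and PKM did not pass the test in any comparison. TPI1, triose phosphate isomerase, had means of 808 ± 22.0, 948 ± 160 and 861 ± 51.7 CPM in parental, Ctrl and p53 KO cells. GAPDH, the dehydrogenase often used as a loading control, stood at 4147, 4204 and 4265 CPM in the parental, 5580, 4961 and 4089 in the Ctrl and 5095, 4684 and 5860 in the p53 KO libraries. The Ctrl libraries spanned the parental range and overlapped with p53 KO, and the p53 KO libraries lay above the parental ones. The log2 fold change of GAPDH in p53 KO against parental cells was 0.31 ± 0.11 (adjusted p = 0.0805), and without Ctrl replicate 1 in the fit it passed at the same size, 0.31 ± 0.08 (adjusted p = 0.00768). PKM, pyruvate kinase, had means of 2967 ± 26.0, 3199 ± 417 and 3329 ± 166 CPM, and its splice forms were not separated in the counts. Reads shared with processed pseudogenes make these genes uncertain, and the counts on their annotated pseudogenes stayed at or below 0.995% of the member's own.

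**Figure D4:**
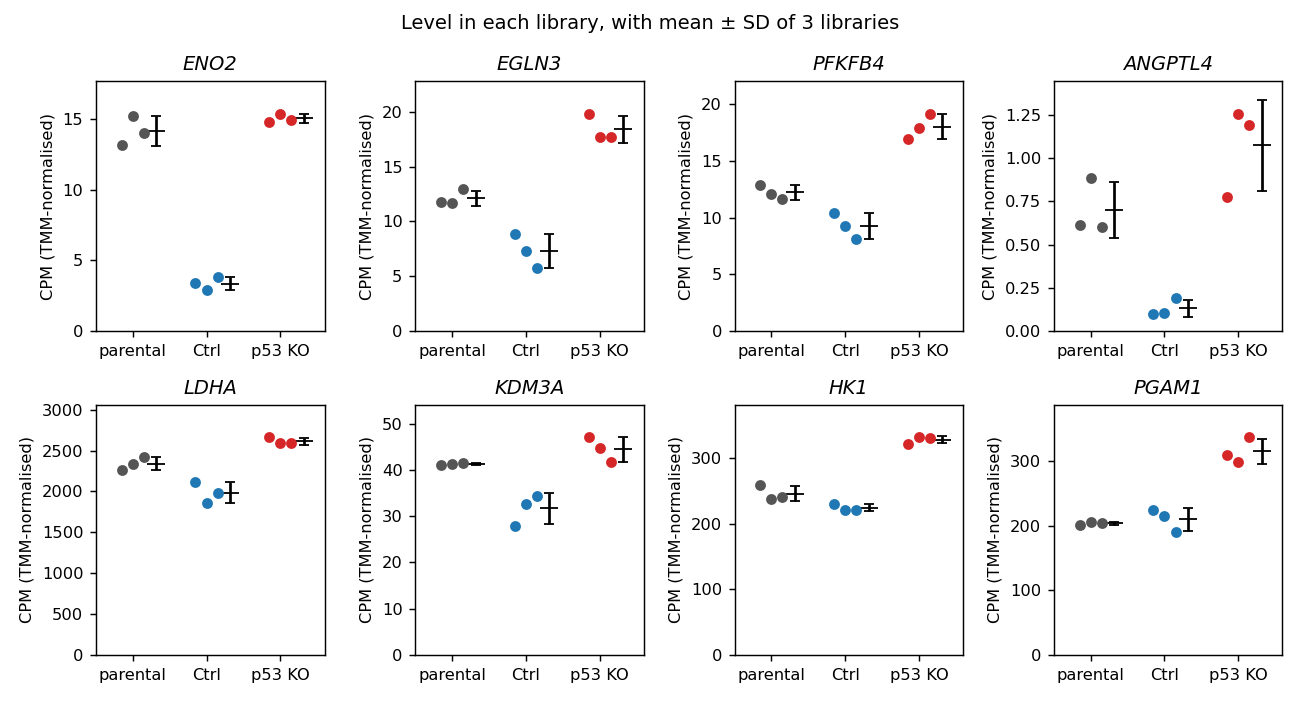
Level of 8 members in each library (points, TMM-normalised CPM, axis from 0) with the mean ± SD of 3 libraries (bar) for parental, Ctrl and p53 KO cells. ENO2 and ANGPTL4 are low in Ctrl cells, EGLN3 and PFKFB4 step from Ctrl through parental to p53 KO, and HK1 and PGAM1 are high in p53 KO cells.

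At the pyruvate branch, LDHA was lower and LDHB higher in Ctrl than in parental cells. LDHA and LDHB code for the subunits of lactate dehydrogenase, of which A favours lactate and B pyruvate. LDHA stood at 2262, 2340 and 2422 CPM in the parental, 2113, 1853 and 1986 in the Ctrl and 2661, 2587 and 2587 in the p53 KO libraries. The groups did not overlap, with Ctrl lowest and p53 KO highest. Its log2 fold change was 0.40 ± 0.07 in p53 KO against Ctrl cells (adjusted p = 0.000984), -0.24 ± 0.07 in Ctrl against parental cells (adjusted p = 0.0281) and 0.16 ± 0.07 in p53 KO against parental cells (adjusted p = 0.126). LDHB stood at 492, 522 and 529 CPM in the parental, 655, 583 and 569 in the Ctrl and 631, 620 and 657 in the p53 KO libraries. Both CRISPR lines lay above all parental libraries and overlapped each other. LDHB rose by 0.31 ± 0.07 on the log2 scale in p53 KO (adjusted p = 0.0120) and by 0.23 ± 0.07 in Ctrl (adjusted p = 0.0429), each against parental cells. The LDHA call between the controls held in 9 of 18 alternatives and was lost without any 1 parental library, Ctrl replicate 2 or p53 KO replicate 2 (adjusted p up to 0.110). The LDHB call held in 5 of 18 and was lost without any 1 library but Ctrl replicate 3 (adjusted p up to 0.159). Without Ctrl replicate 1, LDHB in Ctrl against parental cells was 0.16 ± 0.06 (adjusted p = 0.0604). Without parental replicate 1, the LDHB call in p53 KO against parental cells was lost (adjusted p = 0.0654). The ratio of LDHA to LDHB per kb was 2.22 to 2.27 in parental, 1.57 to 1.73 in Ctrl and 1.95 to 2.09 in p53 KO libraries, with no overlap.

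PDK1 and PDK3 are kinases that switch off pyruvate dehydrogenase and so keep pyruvate out of the mitochondrion's cycle. PDK3 stood at 9.18, 8.73 and 9.73 CPM in the parental, 12.2, 11.0 and 10.9 in the Ctrl and 12.3, 11.0 and 12.5 in the p53 KO libraries. All 6 libraries of the CRISPR lines exceeded the parental ones. PDK3 rose by 0.37 ± 0.10 on the log2 scale in p53 KO against parental cells (adjusted p = 0.0229), and its 0.30 ± 0.10 in Ctrl against parental cells missed the threshold (adjusted p = 0.0518). The first was lost without parental replicate 1 or 2 or p53 KO replicate 1 or 3 (adjusted p up to 0.104). PDK1 stood at 43.8, 41.6 and 49.7 CPM in the parental, 25.7, 38.5 and 42.2 in the Ctrl and 47.2, 40.2 and 40.3 in the p53 KO libraries, and passed no test. Ctrl replicate 1 set its low end.

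Among the HIF subunits and prolyl hydroxylases only EGLN3 passed the test, and it did so in all 3 comparisons. EGLN3 (PHD3) hydroxylates HIF α subunits and is itself induced by HIF. It stood at 11.8, 11.7 and 12.9 CPM in the parental, 8.82, 7.27 and 5.76 in the Ctrl and 19.8, 17.7 and 17.7 in the p53 KO libraries. The 3 groups did not overlap, with Ctrl lowest and p53 KO highest. The log2 fold change was 0.61 ± 0.13 in p53 KO against parental cells (adjusted p = 0.00807), 1.35 ± 0.14 against Ctrl cells (adjusted p = 3.71e-05) and -0.74 ± 0.14 in Ctrl against parental cells (adjusted p = 0.00412). Each passed in all 18 alternatives. EGLN1 (PHD2), the main oxygen sensor of most cells, had means of 58.0 ± 2.39, 54.5 ± 7.32 and 58.0 ± 0.793 CPM in parental, Ctrl and p53 KO cells. Per kb, EGLN1 exceeded EGLN3 between 5.93 and 7.12 times in parental, 7.15 and 14.1 times in Ctrl and 3.98 and 4.56 times in p53 KO libraries.

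HIF1A and EPAS1 code for the HIF-1 and HIF-2 α subunits. HIF1A stood at 205, 211 and 208 CPM in the parental, 116, 181 and 178 in the Ctrl and 196, 188 and 166 in the p53 KO libraries. Ctrl replicate 1 was far below the other 2, which overlapped with p53 KO. EPAS1 stood at 186, 193 and 188 CPM in the parental, 181, 234 and 238 in the Ctrl and 192, 191 and 170 in the p53 KO libraries. In the fit used throughout, neither passed the test in any comparison. With no filter beyond 1 count, HIF1A passed in Ctrl against parental cells (-0.40 ± 0.10, adjusted p = 0.000873). With the exon-length trend removed, EPAS1 passed there (0.28 ± 0.07, adjusted p = 0.0208) and in p53 KO against Ctrl cells (-0.27 ± 0.07, adjusted p = 0.0159). Without Ctrl replicate 1, in Ctrl against parental cells HIF1A changed by -0.21 ± 0.07 (adjusted p = 0.0461) and EPAS1 by 0.32 ± 0.06 (adjusted p = 0.00286). EPAS1 then also fell in p53 KO against Ctrl cells, with -0.35 ± 0.06 (adjusted p = 0.000549). In that fit HIF1A was lower in p53 KO than in parental cells (-0.18 ± 0.06, adjusted p = 0.0361). Fitting only these 2 groups gave HIF1A the same value (-0.18 ± 0.06, adjusted p = 0.0433). Without Ctrl replicate 3, HIF1A changed by -0.48 ± 0.15 in Ctrl against parental cells (adjusted p = 0.0395). The ratio of HIF1A to EPAS1 per kb was 1.55 to 1.57 in parental, 0.907 to 1.10 in Ctrl and 1.38 to 1.45 in p53 KO libraries. The groups did not overlap, and Ctrl replicate 1 gave the 0.907.

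The 9 hypoxia-inducible genes did not move as a block. None passed in p53 KO against parental cells. BNIP3L, KDM3A and ANGPTL4 were higher and ADM lower in p53 KO than in Ctrl cells, and VEGFA, KDM3A and ANGPTL4 were lower in Ctrl than in parental cells. ANGPTL4, a secreted inhibitor of lipoprotein lipase, was a low-count gene, with 16, 23 and 13 counts in the parental, 2, 3 and 5 in the Ctrl and 23, 33 and 24 in the p53 KO libraries. The Ctrl libraries lay below all others, and the other groups overlapped. The fitted log2 fold change was -2.34 ± 0.41 in Ctrl against parental cells (adjusted p = 0.00319) and 2.93 ± 0.38 in p53 KO against Ctrl cells (adjusted p = 0.000202), and counts this low leave the size uncertain. In p53 KO against parental cells it was 0.59 ± 0.27 (adjusted p = 0.171).

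KDM3A, a histone H3 lysine demethylase, stood at 41.1, 41.2 and 41.6 CPM in the parental, 27.9, 32.7 and 34.4 in the Ctrl and 47.1, 44.8 and 41.6 in the p53 KO libraries. Ctrl was lowest without overlap, and the lowest p53 KO library lay just above the highest parental one. The log2 fold change was 0.49 ± 0.09 in p53 KO against Ctrl cells (adjusted p = 0.00198) and -0.38 ± 0.09 in Ctrl against parental cells (adjusted p = 0.0153). The second was lost without any 1 parental library (adjusted p up to 0.0549). BNIP3L, a mitophagy receptor, stood at 60.3, 66.9 and 70.7 CPM in the parental, 49.4, 63.6 and 55.1 in the Ctrl and 82.0, 68.8 and 66.4 in the p53 KO libraries. Its 0.37 ± 0.11 in p53 KO against Ctrl cells (adjusted p = 0.0305) was lost in 6 of 18 alternatives, among them those without parental replicate 2, Ctrl replicate 3 and p53 KO replicate 1 or 2 (adjusted p up to 0.134). ADM, the vasodilator peptide adrenomedullin, stood at 12.7, 11.7 and 11.2 CPM in the parental, 16.0, 13.2 and 13.0 in the Ctrl and 9.36, 10.3 and 11.7 in the p53 KO libraries. Its log2 fold change of -0.43 ± 0.12 in p53 KO against Ctrl cells (adjusted p = 0.0177) was lost without p53 KO replicate 1 or 2 (adjusted p up to 0.0841).

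VEGFA, the main angiogenic ligand, stood at 184, 203 and 184 CPM in the parental, 150, 151 and 161 in the Ctrl and 164, 174 and 156 in the p53 KO libraries. Parental libraries were highest without overlap, and the other groups overlapped. VEGFA changed by -0.31 ± 0.07 on the log2 scale in Ctrl against parental cells (adjusted p = 0.0142). With the trend over exon length removed from each library, the value was -0.14 ± 0.09 (adjusted p = 0.264), and the call was also lost without parental replicate 2. In p53 KO against parental cells the value was -0.21 ± 0.07 (adjusted p = 0.0717). CA9, the carbonic anhydrase used as a marker of hypoxic tumour regions, stood at 11.4, 10.3 and 11.9 CPM in the parental, 18.2, 15.1 and 12.8 in the Ctrl and 13.5, 10.5 and 14.0 in the p53 KO libraries. The Ctrl libraries lay above the parental ones, with 0.45 ± 0.15 on the log2 scale (adjusted p = 0.0512), and this passed without Ctrl replicate 3 at 0.57 ± 0.14 (adjusted p = 0.0161). NDRG1, a stress-induced gene, had means of 59.9 ± 2.24, 56.5 ± 10.5 and 60.8 ± 7.90 CPM in parental, Ctrl and p53 KO cells. ANKRD37 held 6 to 20 counts per library, and no difference was detectable at this depth.

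The genes around each member were also described, to set its change beside that of its chromosome region. The values are medians of the fitted log2 fold change over genes within 5 Mb of the member. Only tested genes with a mean log2 CPM above 2 were taken, and other members were left out. In p53 KO against parental cells the median was 0.46 over 73 genes around PGAM1, all above 0, beside 0.63 for PGAM1 itself. It was 0.45 over 53 genes around HK1, with 96.2% above 0, beside 0.41 for HK1. Around BNIP3L it was 0.47 over 53 genes, with 94.3% above 0, beside 0.14 for BNIP3L. Regions with low medians held PFKP (-0.30, 23 genes), PFKFB3 (-0.27, 18 genes) and NDRG1 (-0.33, 6 genes). HK1, PGAM1, PFKP and PFKFB3 all lie on chromosome 10. Around EGLN3, PFKFB4 and ENO2 the medians were 0.01, 0.03 and 0.01, and around ANGPTL4 0.08. In p53 KO against Ctrl cells, where BNIP3L and PFKFB3 passed the test, the median around BNIP3L was 0.46, with 88.7% above 0, beside 0.37 for BNIP3L. Around PFKFB3 it was -0.35, with 11.1% above 0, beside -0.31 for PFKFB3. Around PFKFB4 and EGLN3 the medians there were -0.01 and 0.08, beside 0.96 and 1.35 for the members. In Ctrl against parental cells the median was 0.03 over 61 genes around ENO2 and 0.13 over 156 around ANGPTL4, while the members themselves stood at -2.07 and -2.34. Around LDHB it was -0.28 over 16 genes, beside 0.23 for LDHB. The part of these regional values in the members' differences was not tested.

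**Figure D5:**
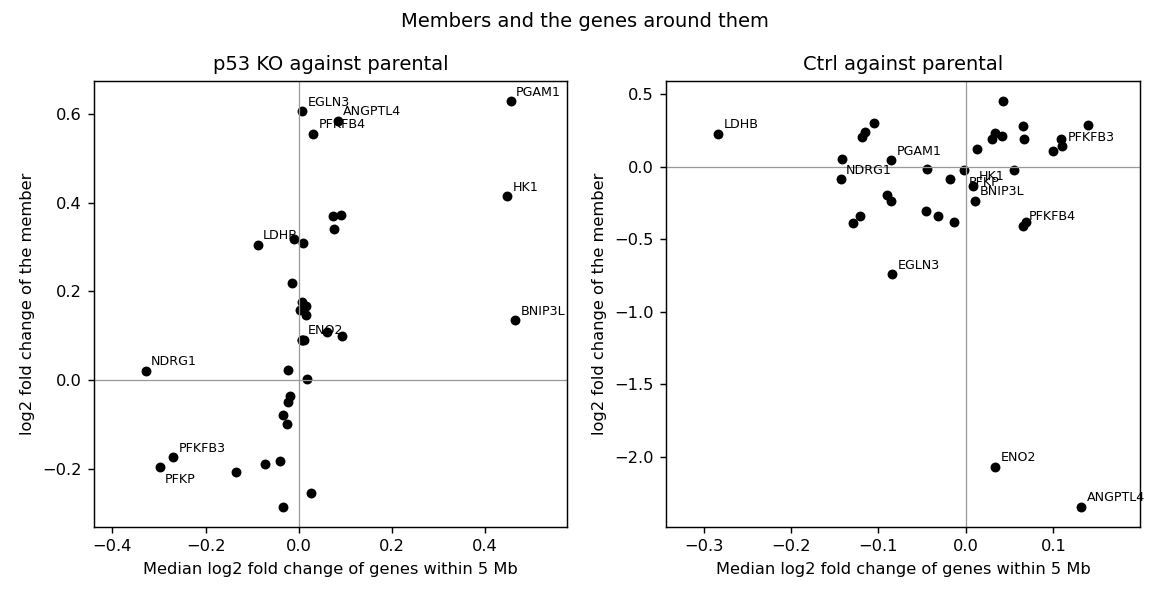
Log2 fold change of each tested member (vertical axis) against the median of its neighbours (horizontal axis) in p53 KO and in Ctrl, each against parental cells. Neighbours are tested genes within 5 Mb with a mean log2 CPM above 2, other members left out. PGAM1, HK1 and BNIP3L lie near 0.45 on the horizontal axis on the left, and ENO2 and ANGPTL4 lie below -2 on the vertical axis on the right with regional medians of 0.03 and 0.13.

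Other genes of the same pathways, from lists that hold none of the members, were counted in the same fit, in which 18.1%, 29.2% and 20.3% of all genes passed in the 3 comparisons, taken in the order above. Of 39 other glycolysis and pyruvate genes tested, 2 were higher and 5 lower in p53 KO against parental cells, 6 and 8 against Ctrl cells, and 7 and 4 in Ctrl against parental cells, which is 17.9%, 35.9% and 28.2% of the list. TXNIP, which restrains glucose uptake, rose from 22.2 CPM in parental to 51.0 in Ctrl (log2 fold change 1.20 ± 0.12, adjusted p = 6.84e-05) and 50.8 in p53 KO cells (1.20 ± 0.12, adjusted p = 7.02e-05). MPC1, a subunit of the mitochondrial pyruvate carrier, rose in p53 KO against both controls, by 0.86 ± 0.08 against parental (adjusted p = 6.87e-05) and 0.85 ± 0.08 against Ctrl cells (adjusted p = 2.88e-05). PDP1, a phosphatase that switches pyruvate dehydrogenase on, stood at 72.1, 37.1 and 74.8 CPM in parental, Ctrl and p53 KO cells, low in Ctrl as ENO2 was (-0.96 ± 0.14 against parental, adjusted p = 0.00105). DLD (-0.63) and SLC2A11 (-1.06) fell in p53 KO against parental cells. In Ctrl against parental cells PCK2 (0.74) and BPGM (0.59) rose and PDP2 (-0.64) fell. GPD1, below 1 CPM in every group, also passed in both comparisons with p53 KO.

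Of 53 other hypoxia-inducible genes tested, 8 were higher and 5 lower in p53 KO against parental cells, 18 and 13 against Ctrl cells, and 11 and 9 in Ctrl against parental cells. These are 24.5%, 58.5% and 37.7% of the list, against 18.1%, 29.2% and 20.3% of all genes. DDIT4, an inhibitor of mTOR signalling, rose against parental cells in both p53 KO (1.18 ± 0.12, adjusted p = 0.000115) and Ctrl cells (0.97 ± 0.12, adjusted p = 0.000352). BNIP3, the mitophagy receptor related to BNIP3L, fell by 0.84 on the log2 scale in Ctrl against parental cells (adjusted p = 8.51e-05). PLOD2, a collagen lysyl hydroxylase, held 0 counts in all 3 p53 KO libraries, against 288 to 300 in parental and 283 to 640 in Ctrl libraries. STC1, a secreted glycoprotein, held 1 count in each parental library, 1 to 5 in Ctrl and 14 to 24 in p53 KO libraries. IGFBP3 was higher in Ctrl than in parental cells (1.13 ± 0.13, adjusted p = 0.000183). TMEM45A was lower in Ctrl than in parental cells (-1.55) and higher in p53 KO than in Ctrl cells (1.66). KLHL24 fell in p53 KO against both controls (-0.77 and -1.04), and DPCD rose against parental cells (0.86). DPCD, DDIT4 and STC1 lie within 5 Mb of PGAM1, HK1 and BNIP3L in turn, around which the medians in p53 KO against parental cells were 0.46, 0.45 and 0.47. The part of these regions was not tested. Of 22 HIF pathway regulators tested, 3 were higher and 3 lower in p53 KO against parental cells, 2 and 2 against Ctrl cells, and 3 and 1 in Ctrl against parental cells, which is 27.3%, 18.2% and 18.2% of the list. ARNT, the partner of HIF α, stood at 58.0 CPM in parental and 44.5 in p53 KO cells (-0.38 ± 0.10, adjusted p = 0.0192). ARNT2, its paralogue, rose in p53 KO cells to 1.40 CPM from 0.455 in parental and 0.221 in Ctrl cells. SIAH2, a ligase that targets prolyl hydroxylases, fell in p53 KO against both controls (-0.38 and -0.58), and CUL2, of the VHL ligase, fell against parental cells (-0.36).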

How the data were processed

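Poly(A) RNA was sequenced in 9 strand-specific libraries of A431 cells with paired 75 bp reads. The authors deposited whole-number counts per gene without normalization. The submitters' processing notes name FastQC, STAR 2.5.1b, featureCounts and GRCh38, and the annotation was Ensembl release 85. The strand setting of the counting is not given in the sources used here, so reads of a member and of a gene overlapping it on the other strand cannot be told apart. Libraries held 19783778 to 29840452 counts, and limits from a count of 0 cover counting error only.

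Counts were analysed with R 4.3.3 and edgeR 4.0.16. Filtering by filterByExpr (minimum count 10) left 14513 genes. After TMM normalization all 9 libraries were fitted with 1 mean per group, and groups were compared by the quasi-likelihood test, two-sided, with Benjamini-Hochberg adjustment over all genes tested. SEs follow from the F statistic. Unless an alternative is named, passing the test refers to this fit. CPM values are TMM-normalised. A second threshold was a log2 fold change of 1.5. Gene positions and exon lengths come from GENCODE release 44 (14397 of 14513 genes matched). Promoter sequences come from RefSeq. Where several starts were listed for a member the first was used, while all were counted among the 35116 promoters.

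All members were named, and, from 4 lists of related genes, up to 5 per list and comparison with the largest change among those past the test. Some genes that this rule names are not reported here. The members and lists were chosen with earlier results of these data known. Alternatives were DESeq2 1.42.0, other normalizations and filters, a replicate block, fits restricted to 2 groups, other thresholds and each library left out. Removing the exon-length trend, by a lowess curve per library used as an offset in edgeR, was added after seeing the data. The fits were tested on simulated data. Figures were drawn with matplotlib 3.10.9.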

Additional observations from a re-analysis of the deposited data

Results flagged for a closer look

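PFKFB4 and EGLN3 moved in opposite directions in the CRISPR lines, each compared with the same parental libraries. PFKFB4 stood at 0.56 on the log2 scale in p53 KO and -0.41 in Ctrl cells, and the difference between these effects was 0.96 (edgeR, adjusted p = 6.78e-05). EGLN3 stood at 0.61 in p53 KO and -0.74 in Ctrl cells, with a difference of 1.35 (edgeR, adjusted p = 3.71e-05). The 2 genes were not equally firm. In Ctrl against parental cells the call of PFKFB4 held in 12 of 18 alternatives, and that of EGLN3 in 18 of 18. In both genes each of the 3 p53 KO libraries lay above, and each of the 3 Ctrl libraries below, all parental libraries. Since the parental libraries enter both effects, the test of the difference is that of p53 KO against Ctrl cells. A gene was listed here only if both effects and their difference passed the test with opposite signs. The adjusted p-values of the difference were thus part of the choice and are no separate support.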

How the results depend on the processing

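In p53 KO against parental cells, where 8 members and 18.1% of all genes passed, 18 members and 34.1% of all genes passed when only the 2 groups compared were fitted. With 1 library left out, 4 to 18 members passed (4 and 10.6% of all genes without parental replicate 1, 18 and 33.5% without Ctrl replicate 1). In Ctrl against parental cells, where 9 members and 20.3% of all genes passed, 16 and 15.3% passed with no filter beyond 1 count. With 1 library left out, 4 to 20 members passed (4 without any 1 parental library, with 9.34% to 10.7% of all genes, and 20 without Ctrl replicate 3, with 29.6%). With at least 10 counts in every library ANGPTL4 was not tested, and 1 member in place of 2 passed a log2 fold change of 1.5 in both comparisons with Ctrl. It was also 1 in Ctrl against parental cells when the test itself was made against 1.5 (glmTreat). Members with all p53 KO libraries outside the others numbered 8 to 14 with 1 library left out, with 14 and 30.8% of all genes without Ctrl replicate 1. The causes of these moves were not tested. In p53 KO against Ctrl cells, with 13 members and 29.2% of all genes past the test, the numbers ran from 9 to 19 with 1 library left out, with 21.0% to 35.0% of all genes.

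With the replicate number as a block, 7, 11 and 5 members passed in place of 8, 13 and 9, and 12.1%, 23.5% and 11.7% of all genes in place of 18.1%, 29.2% and 20.3%. Same-numbered libraries of different groups had correlations of -0.72 to 0.22 between their deviations from the group means, so the numbers were not taken to pair them. Across all member and alternative values, 60 lost and 70 gained a call, and 1808 stayed on the same side of the threshold. Among values past the test in either fit, 0 reversed direction. Direction was not compared where neither fit passed. Removing the exon-length trend, chosen after seeing the data, gave 10, 14 and 10 members and 20.8%, 33.1% and 23.0% of all genes. Depth limits SLC2A3, CA12, ANKRD37 and ANGPTL4.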

Other observations

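Of 10 genes that link p53 to metabolism, 2 were higher and none lower in p53 KO against parental cells, 3 higher and 1 lower against Ctrl cells, and 2 higher and 2 lower in Ctrl against parental cells (edgeR, adjusted p of at most 0.05). Past the test were 20% of these genes and 18.1% of all genes in the first comparison, 40% and 29.2% in the second, and 40% and 20.3% in the last. PANK1, a pantothenate kinase of coenzyme A synthesis, rose in p53 KO cells by 0.44 ± 0.10 on the log2 scale against parental (adjusted p = 0.0102) and by 0.90 ± 0.10 against Ctrl cells (adjusted p = 7.67e-05). In Ctrl against parental cells PANK1 stood at -0.46 ± 0.10 (adjusted p = 0.0112). PANK1 lies on chromosome 10 between HK1 and PGAM1, around which the medians in p53 KO against parental cells were 0.45 and 0.46. The part of this region in the change of PANK1 was not tested. GLS2, a glutaminase, rose in p53 KO against Ctrl cells from 1.03 to 2.27 CPM (adjusted p = 0.00926). LPIN1, a phosphatidate phosphatase, stood at 45.4, 30.8 and 45.1 CPM in parental, Ctrl and p53 KO cells. SESN2, a stress-induced regulator of mTOR signalling, stood at 20.1, 28.6 and 21.8 CPM in the same order, and both genes passed in the comparisons that hold Ctrl. Among the regulators of the HIF pathway, EIF4EBP1 was higher against parental cells in both p53 KO (0.63) and Ctrl cells (0.62), HIF1AN was higher (0.24) and USP20 lower (-0.35) in p53 KO than in Ctrl cells. HIF1AN lies within 5 Mb of PGAM1, around which the median in p53 KO against Ctrl cells was 0.53. TCEB2 (0.50) and RBX1 (0.43) were higher and HSP90AB1 lower (-0.23) in Ctrl than in parental cells.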
